A study of Mus musculus with 20 samples.

Results

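The 38 genes described here bring fatty acids into the heart muscle cell, take them through beta-oxidation, answer to the PPAR receptors or burn ketone bodies. They were chosen by symbol as a list of pathway members, and each was matched by its Ensembl identifier to 1 of the 31874 rows of the gene table. The table came from 20 isolated mouse hearts, with 5 independent hearts in each of 4 groups, taken from mice aged 3 months and perfused through the aorta on a Langendorff apparatus. Fat1-IR and WT-IR hearts were equilibrated for 40 min, made globally ischemic for 20 min and reperfused for 1 h, and Fat1-Con and WT-Con hearts were perfused for 120 min with no ischemia. The Fat1 groups came from fat-1 transgenic mice, which express an n-3 fatty acid desaturase gene of Caenorhabditis elegans that turns n-6 into n-3 polyunsaturated fatty acids, and the WT groups came from C57BL/6J mice. The promoter that drives the transgene is not given in the sources used here. All hearts, controls included, were excised and perfused outside the body, with ventricular tissue taken for RNA, so no group shows a heart in its animal. The study asked how endogenous n-3 fatty acids act on the heart during ischemia and reperfusion (IR), and the comparisons described are WT-IR against WT-Con, Fat1-IR against Fat1-Con, Fat1-IR against WT-IR, Fat1-Con against WT-Con, and the interaction, which is the change with IR in Fat1 hearts minus the change with IR in WT hearts.

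The adult heart takes most of its energy from long-chain fatty acids, which enter through CD36 and fatty acid transport proteins, are joined to coenzyme A, and cross the inner mitochondrial membrane as carnitine esters. In the matrix, a repeating cycle of enzyme steps shortens the chain by an acetyl unit per round, and electrons leave through the electron transfer flavoprotein. Malonyl-CoA blocks the entry step, the nuclear receptors PPARα and PPARδ switch on many genes of the pathway, PDK4 limits the entry of glucose carbon into the citric acid cycle by inhibiting pyruvate dehydrogenase, and ketone bodies made by the liver are a further fuel.

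Promoter sequence is given for the genes on which the results below turn. Bdh1, Pdk4 and Ehhadh passed the test in WT-IR hearts under 1 or more ways of fitting, Acadvl was the member with the smallest p once 2 aberrant hearts were left out, and Hadha and Hadhb encode the 2 subunits of one enzyme and face away from each other. Windows hold 250 bases before and 50 after the start in RefSeq (assembly GRCm38.p6, on which mm10 is based), read 5′ to 3′ along the gene, and capitals mark AGGTCA, the core motif of nuclear receptors, on either strand.
Bdh1, upstream start: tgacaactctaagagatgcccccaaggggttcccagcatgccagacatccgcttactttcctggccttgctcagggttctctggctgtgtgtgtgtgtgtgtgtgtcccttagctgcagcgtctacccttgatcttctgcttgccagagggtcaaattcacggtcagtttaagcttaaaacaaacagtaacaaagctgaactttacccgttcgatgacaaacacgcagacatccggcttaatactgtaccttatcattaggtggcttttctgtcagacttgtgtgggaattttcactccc
Bdh1, downstream start: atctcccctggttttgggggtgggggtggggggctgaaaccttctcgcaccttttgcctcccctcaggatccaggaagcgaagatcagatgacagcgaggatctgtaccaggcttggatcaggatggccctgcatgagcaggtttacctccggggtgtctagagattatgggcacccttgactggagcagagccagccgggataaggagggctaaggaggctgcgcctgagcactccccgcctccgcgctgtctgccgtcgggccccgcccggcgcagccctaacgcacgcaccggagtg
Pdk4: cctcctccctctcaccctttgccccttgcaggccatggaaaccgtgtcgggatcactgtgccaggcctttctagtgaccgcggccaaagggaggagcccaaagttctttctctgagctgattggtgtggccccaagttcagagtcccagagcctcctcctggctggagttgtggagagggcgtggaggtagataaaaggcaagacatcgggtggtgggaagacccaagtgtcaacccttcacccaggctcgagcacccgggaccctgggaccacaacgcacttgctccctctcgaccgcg
Ehhadh: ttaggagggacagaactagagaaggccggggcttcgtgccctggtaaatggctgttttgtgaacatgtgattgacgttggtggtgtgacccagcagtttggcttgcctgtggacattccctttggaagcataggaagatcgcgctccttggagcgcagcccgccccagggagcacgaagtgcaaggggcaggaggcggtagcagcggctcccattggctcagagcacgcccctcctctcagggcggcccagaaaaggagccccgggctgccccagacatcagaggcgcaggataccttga
Acadvl: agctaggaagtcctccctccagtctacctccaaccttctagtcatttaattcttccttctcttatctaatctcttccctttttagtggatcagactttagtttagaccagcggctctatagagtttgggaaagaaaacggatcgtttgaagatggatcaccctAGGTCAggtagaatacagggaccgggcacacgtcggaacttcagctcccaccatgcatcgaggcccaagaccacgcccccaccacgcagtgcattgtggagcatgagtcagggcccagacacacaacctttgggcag
Hadha: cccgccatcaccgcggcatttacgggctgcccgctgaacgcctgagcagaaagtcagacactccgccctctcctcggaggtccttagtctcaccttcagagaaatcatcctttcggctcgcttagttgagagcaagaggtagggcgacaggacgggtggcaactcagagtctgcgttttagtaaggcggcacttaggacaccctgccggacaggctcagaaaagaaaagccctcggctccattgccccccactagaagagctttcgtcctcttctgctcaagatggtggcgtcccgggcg
Hadhb: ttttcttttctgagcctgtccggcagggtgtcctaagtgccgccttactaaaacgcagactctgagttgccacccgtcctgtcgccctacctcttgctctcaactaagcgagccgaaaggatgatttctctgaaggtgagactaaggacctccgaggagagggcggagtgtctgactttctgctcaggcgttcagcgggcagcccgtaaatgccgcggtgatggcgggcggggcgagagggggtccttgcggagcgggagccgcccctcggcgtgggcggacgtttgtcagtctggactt
The windows lie at chr16:31422047-31422346 (plus strand, Bdh1), chr16:31428503-31428802 (plus strand, Bdh1), chr6:5496229-5496528 (minus strand, Pdk4), chr16:21787785-21788084 (minus strand, Ehhadh), chr11:70015379-70015678 (minus strand, Acadvl), chr5:30154931-30155230 (minus strand, Hadha) and chr5:30155003-30155302 (plus strand, Hadhb). Those of Hadha and Hadhb overlap, since the genes are read from opposite strands. Among the 37 windows that matched 33 of the 38 members, 7 held this motif (18.92%), those of Acacb, Acadm, Acadvl, Cd36, Cpt1a, Echs1 and Ucp3. Of all 32851 windows of the same length, 16.26% held one. The longer PPAR-RXR direct repeat, which contains a degenerate form of that motif in tandem, was searched on both strands and was in 0 of the 37 windows and in 0.38% of all windows, and no match says only that these letters are not in these windows. Cpt1b, Crat, Acaa2, Decr1 and Acot13 had no matching window.

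The unit of all levels is FPKM, a gene's fragments divided by its exon length and by the heart's total over genes, and these totals were 15626847 to 25993335 fragments (median 19526067). All 15 cardiomyocyte markers were detected, with a summed level of 15551.1 to 37028.6 FPKM. The hearts Fat1-IR 1 and WT-Con 5 stood apart from the rest, with 13.9% and 15.1% of fragments from the mitochondrial genome, against 28.4% to 39.3% in the other 18 hearts. Both enter the main values, and results that rest on them are given with and without them. Fat1-IR 4 had lymphocyte markers at a summed 120.2 FPKM, against 1.67 to 9.07 FPKM in the other Fat1-IR hearts. The 8 adipocyte markers summed to 132.6 FPKM in Fat1-IR 1 and 60.1 FPKM in Fat1-IR 5, against 25.5 to 31.9 FPKM in the other Fat1-IR hearts, and Adipoq, the adipocyte hormone adiponectin, was at 10.3 FPKM in Fat1-IR 1. Where less of a transcript is described, fewer cells that make it and less RNA per cell cannot be told apart in bulk tissue.

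The members were among the most abundant genes of these hearts. Their mean FPKM over all 20 hearts ran from 2.20 to 3330, and 31 of the 38 stood above the 85th percentile of the 18219 genes that were tested, those averaging 0.1 FPKM or more. Fabp3, the cytosolic carrier of fatty acids in the heart, led with a mean of 3330 FPKM. Pdk4 followed at 513 FPKM, and then Cd36, the membrane uptake protein, at 482 FPKM. The acyl-CoA dehydrogenase of long chains, Acadl (449 FPKM), was above the very-long-chain Acadvl (168 FPKM), the medium-chain Acadm (279 FPKM) and the short-chain Acads (70.2 FPKM). The lowest as deposited were Ppara (3.72 FPKM) and Ppard (3.39 FPKM), which encode the receptors themselves, Acot1 (3.15 FPKM) and Cpt1b (2.20 FPKM). Most exon bases of Cpt1b are shared with another gene, as described below, so its place at the bottom may reflect the counting.

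**Figure D1:**
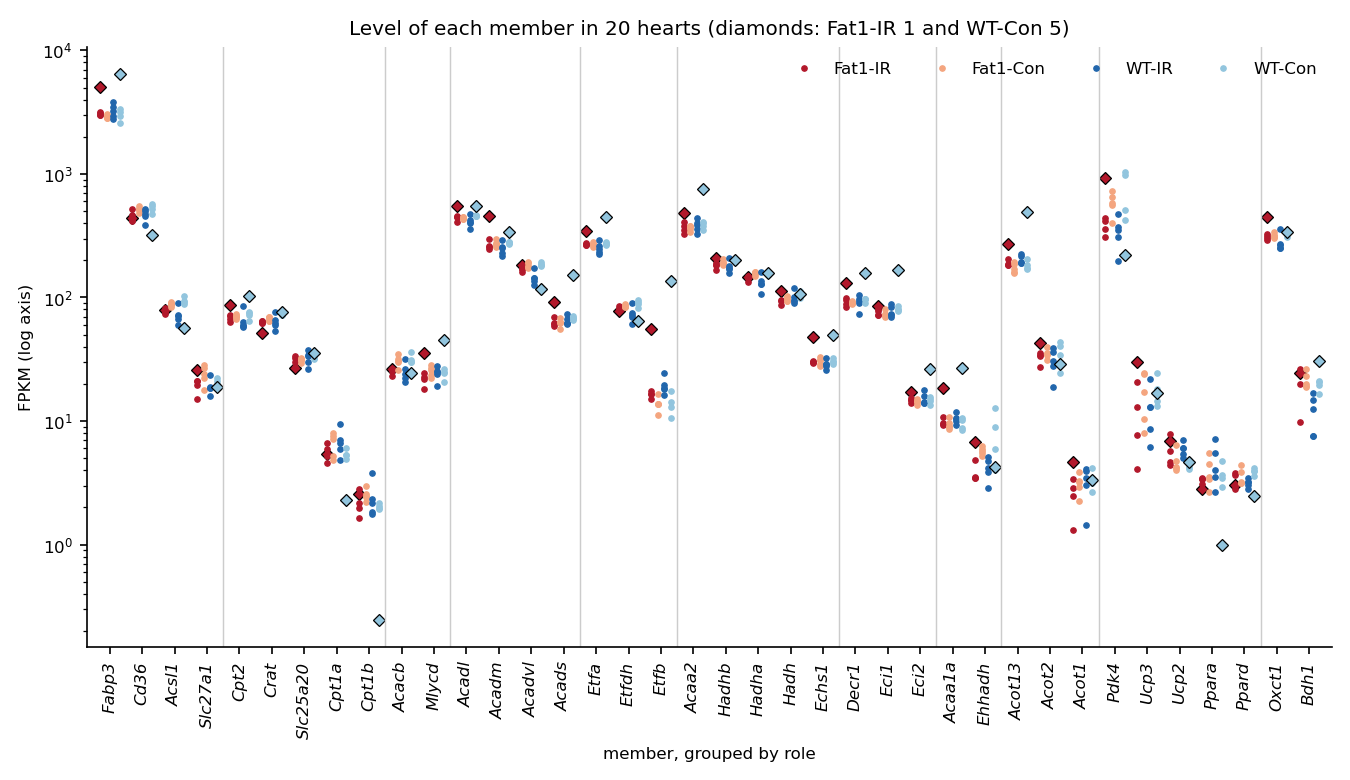
FPKM of each of the 38 members (log axis) in every heart, grouped by role, with Fat1-IR, Fat1-Con, WT-IR and WT-Con from left to right within a member and diamonds for Fat1-IR 1 and WT-Con 5. The levels as deposited run from Fabp3 (mean 3330 FPKM) to Cpt1b (mean 2.20 FPKM), whose exons are largely shared with another gene. The WT-Con 5 diamond lies far from its group for members such as Etfb, Acot13 and Cpt1b.

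The levels of Cpt1b and Etfb carry a limit of counting. Cpt1b is the muscle form of carnitine palmitoyltransferase 1, and Etfb encodes the beta subunit of the electron transfer flavoprotein. In the GENCODE M21 annotation, 81.4% of the exon bases of Cpt1b also belong to Gm44502, and 53.0% of those of Etfb belong to Gm45233, both annotated as protein-coding on the same strand. Gm44502 was at 0 FPKM in 18 of 20 hearts and Gm45233 in 16 of 20. How the counting treated fragments in shared exons is not stated, so the levels of these genes are not compared with those of other genes below. A further 42.9% of the exon bases of Acadvl lie opposite Dvl2 (at most 1.23 FPKM) and 13.7% of those of Bdh1 opposite Gm15743, and whether the counting used the strand is not stated. Acot1 and Acot2 are close copies of each other, so fragments could have been shared between them.

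In WT-IR hearts, 34 of the 38 members were lower than in WT-Con hearts on the log2 scale, and 4 were higher. The median log2 fold change over members was -0.20, with members between -0.92 and 0.68, while the median over all genes tested was 0.04 and 45.2% of all genes were lower. No single member passed the test, since limma called 0 of 38 at an adjusted p under 0.05 with a fold change over 1.5, where 3.2% of all genes were called. At an unadjusted p under 0.05 limma had 8 members (14.9% of all genes), 6 of them lower, and limma's voom on fragment counts had 11 and called 1, Bdh1. Without WT-Con 5 and Fat1-IR 1, 29 of the 38 members were lower and 9 higher, with a median of -0.13 (0.06 over all genes), and limma called 2 members, Pdk4 and Ehhadh, both lower, where 4.75% of all genes were called. In that fit 18 members had an unadjusted p under 0.05 (22.7% of all genes), and 7 members had an adjusted p under 0.05 whatever their fold change, with Acadvl, Acsl1, Pdk4, Etfdh, Ehhadh and Acacb lower and Etfb higher, where 8.92% of all genes had one. Across 36 ways of fitting, 20 members were lower in every one and 4 were higher in every one, those 4 being Cpt1a, Cpt1b, Ppara and Ucp2. These fits are not independent. Leaving out a heart of another group, or changing only the filter or the estimate of the spread, cannot move a fold change, so many of them repeat the main values.

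In Fat1-IR hearts the same list was nearly even by count: 21 of 38 members were lower than in Fat1-Con hearts and 17 were higher. All genes leaned the other way, with 11276 of the 18219 tested higher. The members' median log2 fold change was -0.05 (0.08 over all genes). Relative to all genes that median was -0.14 as deposited and -0.15 with FPKM rescaled to nuclear fragments. Over all fits run this relative value lay between -0.16 and -0.01, and it was -0.01 without Fat1-IR 4. Limma called 0 of 38, where 2% of all genes were called, and 1 member, Acacb, had an unadjusted p under 0.05 (12.5% of all genes). Voom also called 0 and had 1 member at that level. Single hearts set this balance. Without Fat1-IR 4, 17 members were lower and 21 higher, with a median of 0.05 (0.05 over all genes). Leaving out Fat1-IR 1 alone moved it further the other way, to 28 lower and 10 higher, with a median of -0.08 (0.02 over all genes). Without WT-Con 5 and Fat1-IR 1, 28 of 38 were lower, close to the 29 of 38 in WT-IR hearts in the same fit, with a median of -0.08, and again limma called 0, where 2.65% of all genes were called, with 6 members at an unadjusted p under 0.05 (16.9% of all genes), all lower. The interaction tested the difference between the changes in the genotypes, and limma called 0 of 38 members, where 0.00549% of all genes were called, with 2 members at an unadjusted p under 0.05 (5.31% of all genes), and voom called 0 with 2. The members' median interaction was 0.18 over all hearts (0.04 over all genes) and 0.08 without Fat1-IR 1 and WT-Con 5 (-0.02 over all genes). With FPKM rescaled to nuclear fragments only, it was -0.02 (-0.14 over all genes), with 19 of 38 members above 0, so its sign depends on the scaling. No member's change was shown to differ between the genotypes.

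**Figure D2:**
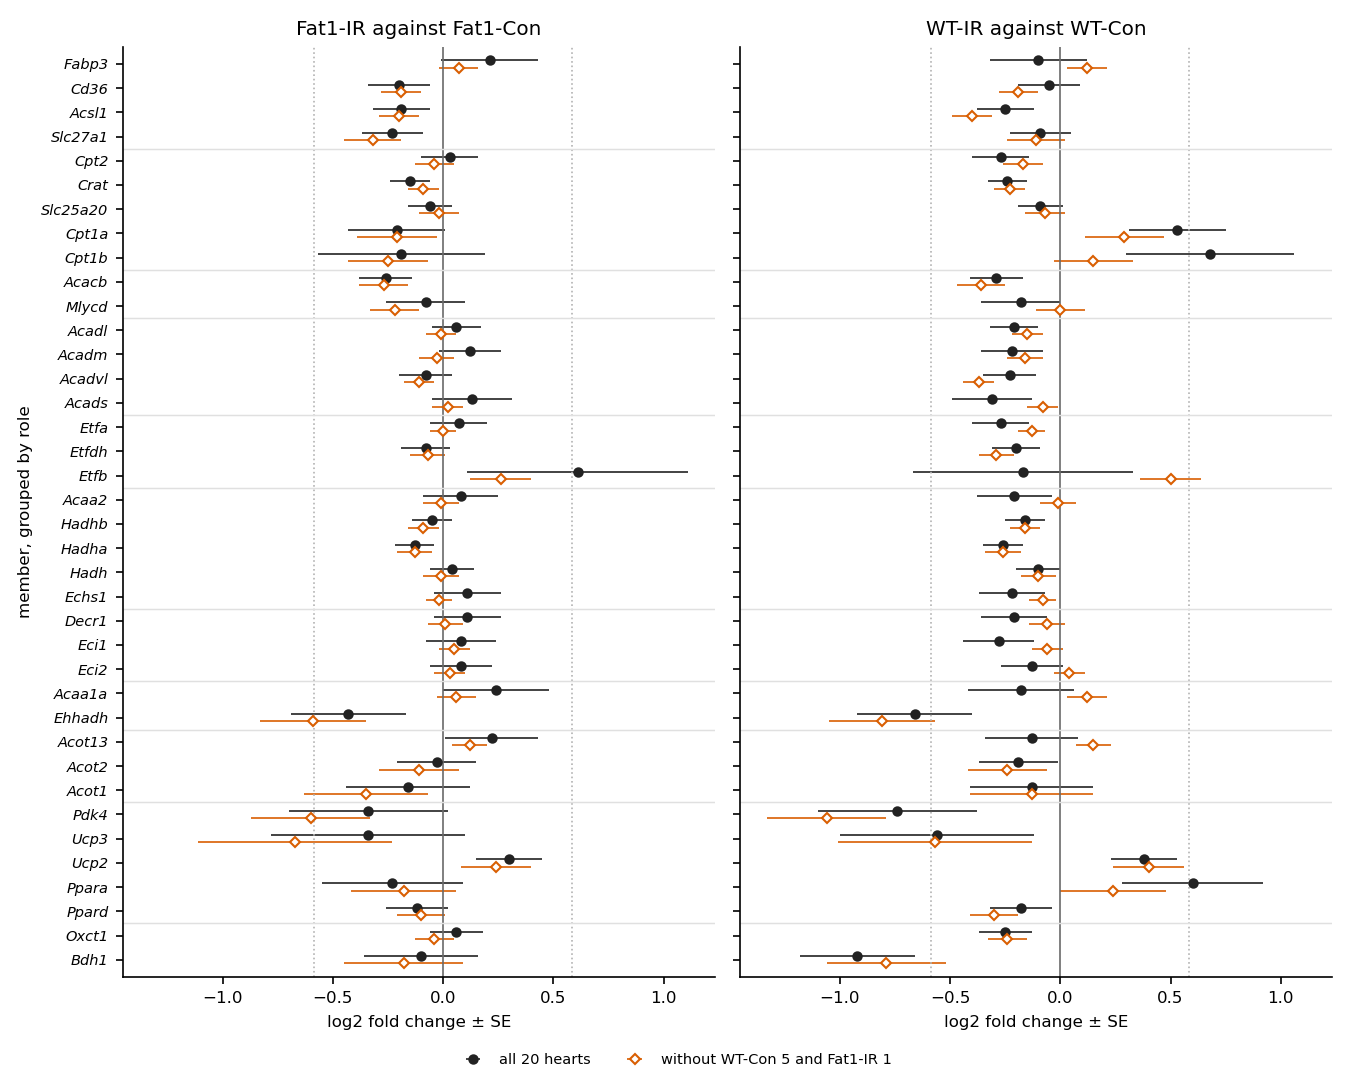
Log2 fold change (± SE) of each member for Fat1-IR against Fat1-Con (left) and WT-IR against WT-Con (right), with all 20 hearts (filled) and without WT-Con 5 and Fat1-IR 1 (open). Dotted lines mark a fold change of 1.5. Most filled points of the WT panel lie left of 0 (34 of 38), with Bdh1 and Pdk4 the farthest, and the open point of Etfb lies on the other side of 0 from its filled point.

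How far the WT-IR members were down as a group depends on the scaling. With FPKM rescaled to nuclear fragments only, the median over all genes moved to 0.16 in WT-IR against WT-Con and that over members to -0.07, with 28 of 38 below 0. Relative to all genes the members' median was -0.24 as deposited and -0.23 after rescaling, and it lay between -0.27 and -0.19 over all fits run. Markers of other cell types were higher in WT-IR hearts: the 8 fibroblast markers summed to 181.1 to 221.9 FPKM in WT-IR, against 136.7 to 166.9 FPKM in WT-Con, and the 12 endothelial markers to 182.3 to 225.3 FPKM in WT-IR, against 124.9 to 180.5 FPKM in WT-Con. The 8 smooth muscle and pericyte markers likewise did not overlap, at 248.5 to 285.3 FPKM in WT-IR, against 190.9 to 235.2 FPKM in WT-Con. The 15 cardiomyocyte markers had a median log2 fold change of -0.24, with 13 lower and 0 called, and their sums overlapped, at 15551.1 to 19727.8 FPKM in WT-IR and 16200.6 to 37028.6 FPKM in WT-Con, with the highest in WT-Con 5. Without WT-Con 5 and Fat1-IR 1 the cardiomyocyte median was -0.04, with 8 lower, 7 higher and 1 called lower by limma. In Fat1-IR hearts the fibroblast sum was 133.8 FPKM in Fat1-IR 4 and 162.0 to 182.4 FPKM in the others, against 143.2 to 150.3 FPKM in Fat1-Con. The endothelial sum was 164.7 to 196.4 FPKM in Fat1-IR, against 144.1 to 169.4 FPKM in Fat1-Con. That of smooth muscle and pericytes was 218.0 to 274.6 FPKM in Fat1-IR, against 221.0 to 244.2 FPKM in Fat1-Con. In Fat1-IR, 7 of 8 fibroblast, 8 of 12 endothelial and 7 of 8 smooth muscle and pericyte markers were higher, with 0 called. None of these lists had a marker at 0 in every heart, and the part of cell composition in the members' values was not tested.

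**Figure D3:**
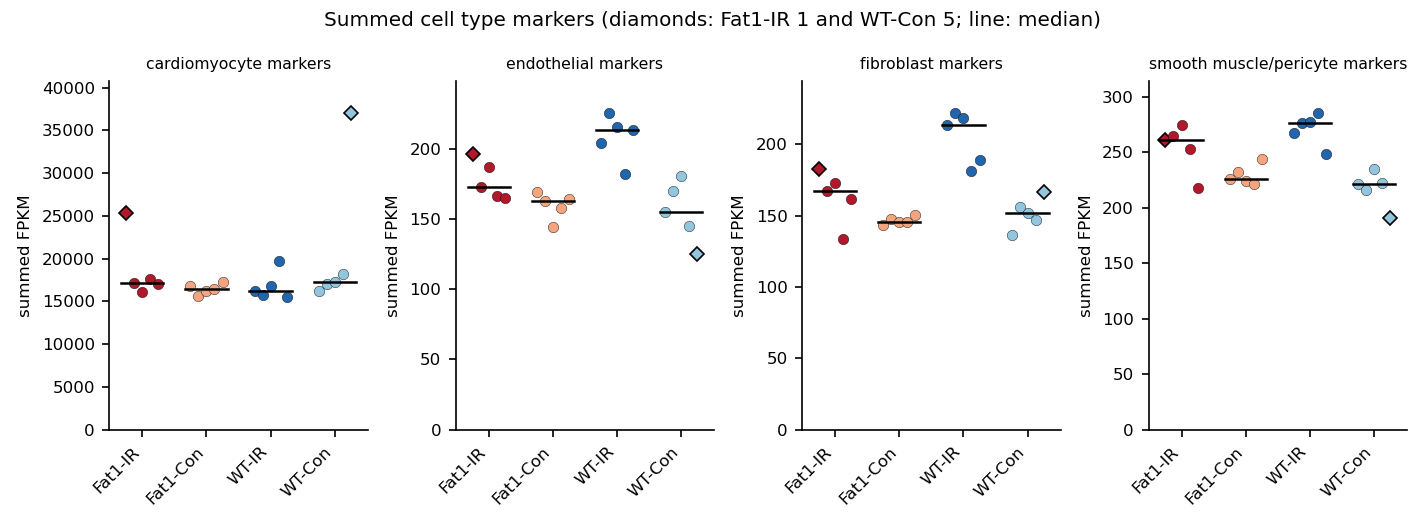
Summed FPKM of the cardiomyocyte, endothelial, fibroblast and smooth muscle and pericyte markers in each heart, by group, with a line at the group median and diamonds for Fat1-IR 1 and WT-Con 5. The WT-IR hearts lie above all WT-Con hearts for the last 3 lists, while the cardiomyocyte sums overlap, with the highest, 37028.6 FPKM, in WT-Con 5.

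Ketone use held the member with the smallest p. Bdh1 (chr16:31422280-31458901, mm10) encodes the mitochondrial enzyme that turns beta-hydroxybutyrate into acetoacetate. It was at 7.52, 7.60, 12.4, 14.7 and 16.8 FPKM in WT-IR hearts 1 to 5, against 20.8, 21.1, 19.5, 16.4 and 30.5 FPKM in WT-Con hearts 1 to 5. The groups overlapped by 1 heart on each side, WT-IR 5 and WT-Con 4. The log2 fold change was -0.92 (SE 0.26), with a limma adjusted p of 0.0538. Over 36 fits it stayed between -1.06 and -0.72, and it passed in 7 of them, with limma adjusted p values from 0.0162 to 0.153. Without WT-Con 5 and Fat1-IR 1 it was -0.79 (SE 0.27, limma adjusted p = 0.0744).

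In the fat-1 hearts the Bdh1 values overlapped. Bdh1 was at 24.5, 19.9, 24.6, 26.5 and 9.75 FPKM in Fat1-IR hearts 1 to 5, against 19.2, 19.0, 19.8, 23.3 and 26.2 FPKM in Fat1-Con hearts 1 to 5. Only Fat1-IR 5 lay below the Fat1-Con range, and the log2 fold change was -0.10 (SE 0.26, limma adjusted p = 0.904). Fat1-IR against WT-IR gave 0.82 (SE 0.26, limma adjusted p = 0.379) and between 0.59 and 1.08 over the fits, and this comparison shares the low WT-IR hearts with the one before. The interaction for Bdh1 was 0.82 (SE 0.37, limma adjusted p = 0.831), between 0.45 and 1.07 over the fits.

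Oxct1 encodes the enzyme that charges acetoacetate with coenzyme A, the step that commits a ketone body to oxidation. It was at 249.4, 250.9, 264.6, 359.3 and 272.8 FPKM in WT-IR hearts 1 to 5, against 331.6, 337.6, 307.8, 334.2 and 340.6 FPKM in WT-Con hearts 1 to 5. Thus 4 of 5 WT-IR hearts lay below every WT-Con heart, and WT-IR 4 lay above them all. Its log2 fold change was -0.25 (SE 0.12, limma adjusted p = 0.340). In Fat1-IR hearts it was at 447.0, 323.7, 314.9, 303.2 and 290.7 FPKM, against 316.0, 307.4, 304.3, 318.5 and 341.4 FPKM in Fat1-Con hearts, which overlapped. Fat1-IR against WT-IR gave 0.26 (SE 0.12, limma adjusted p = 0.724), and 0.15 (SE 0.09, limma adjusted p = 0.580) without Fat1-IR 1, the heart with the highest value, and WT-Con 5.

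**Figure D4:**
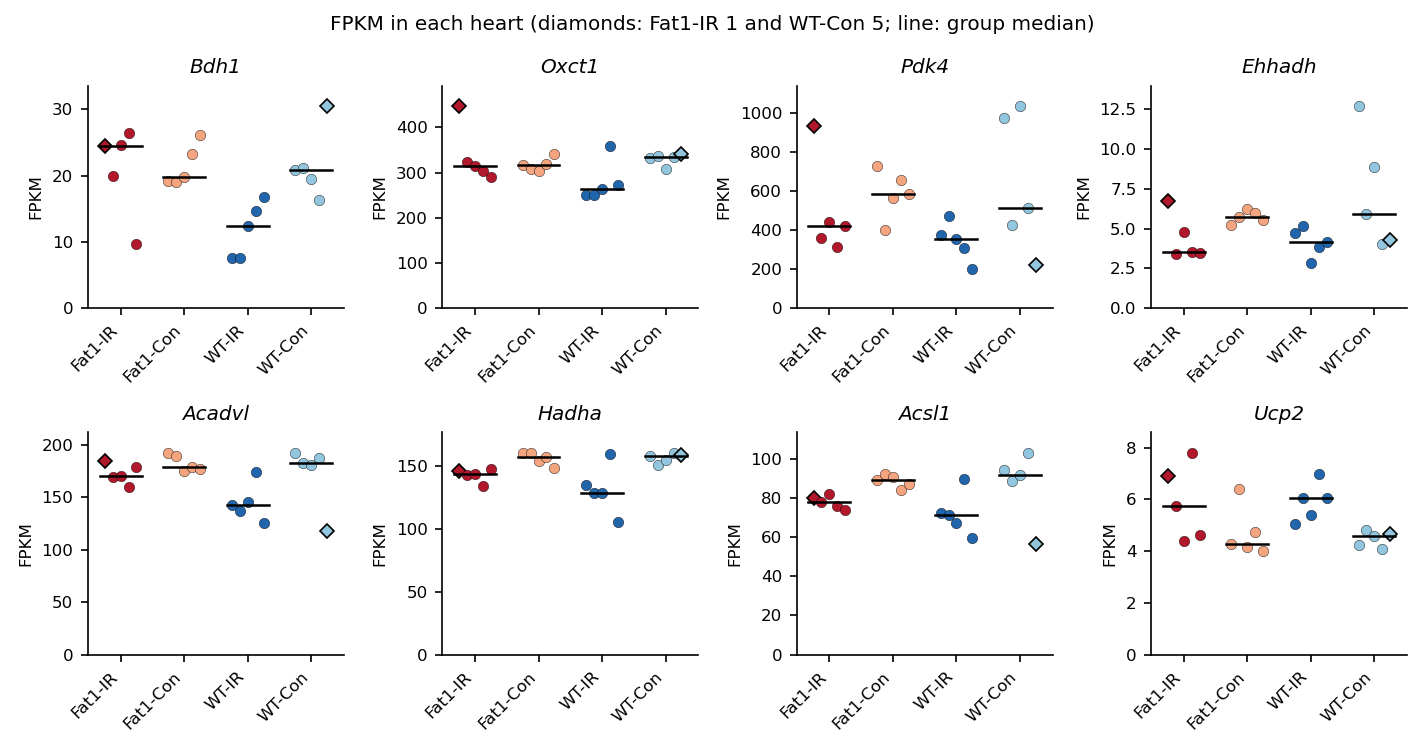
FPKM of 8 members in each heart, by group, with axes from 0, a line at the group median and diamonds for Fat1-IR 1 and WT-Con 5. Bdh1 was low in WT-IR hearts (7.52 to 16.8 FPKM), Pdk4 and Ehhadh were spread over a wide range in WT-Con hearts, and WT-Con 5 lay below the other WT-Con hearts for Pdk4, Acadvl and Acsl1.

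Of the 5 PPAR receptors and targets, 3 were lower and 2 higher in WT-IR hearts, with log2 fold changes of -0.74 to 0.60 and 0 called. Pdk4 (chr6:5483351-5496309, mm10) encodes the kinase that shuts pyruvate dehydrogenase and is a classical PPAR target. It was at 374.0, 473.4, 350.8, 307.4 and 197.5 FPKM in WT-IR hearts 1 to 5, against 972.6, 426.8, 1032.7, 510.3 and 222.1 FPKM in WT-Con hearts 1 to 5. WT-Con 1 and 3 were far above every WT-IR heart, and WT-Con 5 was below 4 of them. The log2 fold change was -0.74 (SE 0.36, limma adjusted p = 0.353) over all hearts and -1.06 (SE 0.27, limma adjusted p = 0.0187) without WT-Con 5 and Fat1-IR 1. Over 36 fits its limma adjusted p ran from 0.0187 to 0.633 and it passed in 4. In Fat1-IR hearts Pdk4 was at 932.9, 356.2, 441.2, 311.3 and 418.8 FPKM, against 728.6, 401.2, 564.7, 652.6 and 582.0 FPKM in Fat1-Con hearts. Here Fat1-IR 1 lay above every other heart of both groups, and the log2 fold change of -0.34 (SE 0.36, limma adjusted p = 0.742) became -0.60 (SE 0.27, limma adjusted p = 0.254) without Fat1-IR 1 and WT-Con 5.

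Ucp2 and Ucp3 encode mitochondrial carriers of the uncoupling protein family. Ucp2 was at 5.06, 6.04, 5.39, 6.99 and 6.04 FPKM in WT-IR hearts 1 to 5, against 4.24, 4.83, 4.60, 4.07 and 4.67 FPKM in WT-Con hearts 1 to 5. It was the 1 member whose groups did not overlap in this comparison with WT-IR higher, as for 3.36% of all genes, and 0 members were without overlap and lower, as for 1.39% of all genes. The log2 fold change of Ucp2 was 0.38 (SE 0.15, limma adjusted p = 0.224), and in Fat1-IR against Fat1-Con it was 0.30 (SE 0.15, limma adjusted p = 0.440), where the groups overlapped. UCP2 is also made by macrophages and other immune cells, and the 10 macrophage markers summed to 218.5 to 250.4 FPKM in WT-IR, against 141.0 to 196.5 FPKM in WT-Con hearts 1 to 4 and 328.3 FPKM in WT-Con 5. Of these 10 markers, 9 were higher in WT-IR hearts with and without WT-Con 5 and Fat1-IR 1, and their part in the Ucp2 values was not tested. Ucp3, the form of muscle, varied widely within groups, with a coefficient of variation of 69.1% in Fat1-IR and 45.1% in Fat1-Con, and 47.9% in WT-IR and 24.6% in WT-Con, so its log2 fold change of -0.56 (SE 0.44) in WT-IR hearts was small beside this spread. Ppara was at 2.68 to 7.14 FPKM in WT-IR, against 0.984 to 4.73 FPKM in WT-Con, and its log2 fold change, 0.60 (SE 0.32), was 0.24 (SE 0.24) without WT-Con 5 and Fat1-IR 1. Ppard was at 2.83 to 3.47 FPKM in WT-IR, against 3.62 to 4.16 FPKM in WT-Con hearts 1 to 4 and 2.47 FPKM in WT-Con 5.

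The peroxisomal members were Ehhadh, the bifunctional enzyme of the peroxisome and a PPARα target, and Acaa1a, the peroxisomal thiolase. Ehhadh (chr16:21761287-21787807, mm10) was at 4.73, 5.14, 2.85, 3.85 and 4.16 FPKM in WT-IR hearts 1 to 5, against 12.7, 5.94, 8.90, 4.02 and 4.27 FPKM in WT-Con hearts 1 to 5. The high values of WT-Con 1 and 3 were in the same hearts as the high values of Pdk4. On the log2 scale the difference was -0.66 (SE 0.26, limma adjusted p = 0.206) over all hearts and -0.81 (SE 0.24, limma adjusted p = 0.0418) without WT-Con 5 and Fat1-IR 1, with limma adjusted p values of 0.0418 to 0.431 over the 36 fits. In Fat1-IR hearts Ehhadh was at 6.76, 3.43, 4.80, 3.51 and 3.47 FPKM, against 5.21, 5.76, 6.23, 5.99 and 5.53 FPKM in Fat1-Con hearts. Outside Fat1-IR 1, every Fat1-IR heart lay below every Fat1-Con heart, as for 4.49% of all genes, and the log2 fold change was -0.43 (SE 0.26, limma adjusted p = 0.533), or -0.59 (SE 0.24, limma adjusted p = 0.2) without that heart and WT-Con 5. Acaa1a was at 9.35 to 11.8 FPKM in WT-IR, against 8.53 to 10.6 FPKM in WT-Con hearts 1 to 4 and 26.8 FPKM in WT-Con 5.

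The 4 acyl-CoA dehydrogenases take the first step of each round of beta-oxidation. All 4 were lower in WT-IR than in WT-Con hearts, with log2 fold changes of -0.31 to -0.21 and 0 called, and kept that direction under median-of-ratios, TPM and nuclear scaling and without WT-Con 5 and Fat1-IR 1. Acadvl (chr11:70010183-70015411, mm10), which acts on the longest chains, was at 142.9, 136.5, 145.1, 174.5 and 125.7 FPKM in WT-IR hearts 1 to 5, against 192.5, 183.0, 180.8, 187.4 and 117.4 FPKM in WT-Con hearts 1 to 5. Every WT-IR heart lay below WT-Con hearts 1 to 4, as for 3.66% of all genes, and WT-Con 5 lay below every WT-IR heart. Accordingly the log2 fold change was -0.23 (SE 0.12, limma adjusted p = 0.400) over all hearts, and -0.37 (SE 0.07, limma adjusted p = 0.00422) without WT-Con 5 and Fat1-IR 1, a change below the 1.5-fold threshold. Its limma adjusted p ran from 0.000792 to 0.771 over the 36 fits. In fat-1 hearts Acadvl was at 184.7, 169.2, 170.4, 159.6 and 179.1 FPKM in Fat1-IR, against 192.5, 189.5, 174.8, 179.0 and 177.3 FPKM in Fat1-Con, with a log2 fold change of -0.08 (SE 0.12, limma adjusted p = 0.823). Fat1-IR against WT-IR was 0.26 (SE 0.12, limma adjusted p = 0.734) and 0.23 (SE 0.07, limma adjusted p = 0.220) without Fat1-IR 1 and WT-Con 5.

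Acadl was at 358.3 to 478.3 FPKM in WT-IR, against 454.3 to 552.4 FPKM in WT-Con, Acadm at 218.6 to 290.1 FPKM in WT-IR, against 269.8 to 341.5 FPKM in WT-Con, and Acads at 60.8 to 73.2 FPKM in WT-IR, against 66.0 to 150.7 FPKM in WT-Con. WT-IR 4 was the highest WT-IR heart for each of these and WT-Con 5 the highest WT-Con heart. WT-IR 4 was above the median of the other WT-IR hearts for 34 of the 38 members, and WT-IR 5 was above it for 8. On the log2 scale the median deviation of WT-IR 4 was 0.28 over members and 0.17 over all genes. For WT-IR 5 it was -0.18 over members and -0.01 over all genes. WT-IR 4 had the lowest mitochondrial-genome share of its group, 28.4%, and WT-IR 5 the highest, 39.3%.

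Electrons from these enzymes pass to the electron transfer flavoprotein, of which Etfa and Etfb encode the subunits, and on to the membrane through the product of Etfdh. Etfa was at 246.0, 233.5, 261.2, 290.5 and 224.5 FPKM in WT-IR hearts 1 to 5, against 271.9, 266.7, 276.1, 283.2 and 445.4 FPKM in WT-Con hearts 1 to 5, with a log2 fold change of -0.27 (SE 0.13, limma adjusted p = 0.341). In Fat1-IR it was at 344.7, 265.6, 273.4, 265.7 and 275.0 FPKM, against 283.1, 269.5, 258.6, 271.1 and 264.3 FPKM in Fat1-Con. The interaction for Etfa was 0.35 (SE 0.19, limma adjusted p = 0.831). For the WT difference the value without WT-Con 5 and Fat1-IR 1 was -0.13 (SE 0.06, limma adjusted p = 0.217), and for the interaction it was 0.14 (SE 0.09, limma adjusted p = 0.884). WT-Con 5 held the highest Etfa value of the WT hearts, and Fat1-IR 1 that of the Fat1 hearts. Etfb was at 18.4, 16.2, 24.6, 19.6 and 18.2 FPKM in WT-IR, against 10.5, 12.9, 14.2, 17.5 and 137.2 FPKM in WT-Con hearts 1 to 5. WT-Con 5 set its direction: the log2 fold change was -0.17 (SE 0.50, limma adjusted p = 0.926) with that heart and 0.50 (SE 0.14, limma adjusted p = 0.0292) without it and Fat1-IR 1. Etfdh was at 61.0 to 91.0 FPKM in WT-IR, against 64.9 to 96.2 FPKM in WT-Con, with -0.20 (SE 0.11) over all hearts and -0.29 (SE 0.08, limma adjusted p = 0.0342) without WT-Con 5 and Fat1-IR 1.

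The hydratase, dehydrogenase and thiolase steps are run by the trifunctional protein of Hadha and Hadhb on long chains and by the products of Echs1, Hadh and Acaa2 on shorter ones. All 5 were lower in WT-IR hearts as deposited, with log2 fold changes of -0.26 to -0.10 and 0 called, and 4 of 5 were lower under nuclear scaling. Hadha was at 135.0, 129.0, 129.1, 160.0 and 106.0 FPKM in WT-IR hearts 1 to 5, against 158.2, 150.8, 155.2, 160.4 and 158.8 FPKM in WT-Con hearts 1 to 5. The WT-Con hearts were close together, and only WT-IR 4 reached their range. The log2 fold change was -0.26 (SE 0.09, limma adjusted p = 0.156) over all hearts and -0.26 (SE 0.08, limma adjusted p = 0.0557) without WT-Con 5 and Fat1-IR 1, and its limma adjusted p ran from 0.00784 to 0.514 over the fits. In Fat1-IR hearts Hadha was at 146.2, 143.4, 143.8, 134.3 and 148.0 FPKM, against 160.9, 160.5, 154.0, 157.2 and 148.9 FPKM in Fat1-Con hearts. These groups did not overlap, and the log2 fold change was -0.13 (SE 0.09, limma adjusted p = 0.615). Hadhb, its partner read from the opposite strand, was at 157.1 to 207.7 FPKM in WT-IR, against 193.0 to 202.0 FPKM in WT-Con, with -0.16 (SE 0.09, limma adjusted p = 0.425). The short-chain members overlapped as well. Echs1 was at 25.8 to 32.5 FPKM in WT-IR, against 28.8 to 49.9 FPKM in WT-Con, Hadh at 90.5 to 118.4 FPKM in WT-IR, against 98.5 to 113.8 FPKM in WT-Con, and Acaa2 at 323.9 to 442.1 FPKM in WT-IR, against 350.8 to 759.0 FPKM in WT-Con.

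The 4 uptake and activation members had log2 fold changes of -0.25 to -0.05 in WT-IR hearts, with 0 called. Acsl1, the main long-chain acyl-CoA synthetase of the heart, was at 72.5, 71.4, 67.0, 89.6 and 59.7 FPKM in WT-IR hearts 1 to 5, against 94.1, 88.5, 91.6, 103.1 and 56.5 FPKM in WT-Con hearts 1 to 5. As for Acadvl, WT-Con 5 lay below every WT-IR heart, while the other WT-Con hearts lay above 4 of the 5. Its log2 fold change was -0.25 (SE 0.13, limma adjusted p = 0.401) over all hearts and -0.40 (SE 0.09, limma adjusted p = 0.00704) without WT-Con 5 and Fat1-IR 1, with limma adjusted p values of 0.00101 to 0.751 over the fits. In Fat1-IR it was at 79.8, 77.7, 81.8, 75.7 and 73.7 FPKM, against 89.2, 92.1, 90.5, 84.3 and 87.1 FPKM in Fat1-Con. Acsl1 and Hadha were the 2 members whose Fat1-IR hearts all lay below the Fat1-Con hearts, as for 2.46% of all genes, and 0 members had all Fat1-IR hearts above, as for 4.22% of all genes. For Acsl1 there the log2 fold change was -0.19 (SE 0.13, limma adjusted p = 0.594). Cd36 was at 383.1 to 519.2 FPKM in WT-IR, against 322.3 to 574.5 FPKM in WT-Con, and Slc27a1, a fatty acid transport protein, at 15.9 to 23.7 FPKM in WT-IR, against 18.9 to 22.2 FPKM in WT-Con. Fabp3 was at 2781.3 to 3814.8 FPKM in WT-IR, against 2570.4 to 3331.2 FPKM in WT-Con hearts 1 to 4 and 6412.2 FPKM in WT-Con 5.

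In the carnitine shuttle, Cpt2, Crat and Slc25a20 were lower in WT-IR than in WT-Con hearts, and Cpt1a and Cpt1b were higher, with 0 of 5 called. Under nuclear scaling Slc25a20 was higher by 0.04. Cpt1a was at 5.96, 9.39, 4.83, 7.07 and 6.64 FPKM in WT-IR hearts 1 to 5, against 4.95, 6.10, 5.32, 5.31 and 2.30 FPKM in WT-Con hearts 1 to 5. The log2 fold change of 0.53 (SE 0.22, limma adjusted p = 0.258) was 0.29 (SE 0.18, limma adjusted p = 0.360) without WT-Con 5 and Fat1-IR 1. Cpt1b was at 1.76, 1.83, 2.17, 3.76 and 2.32 FPKM in WT-IR hearts 1 to 5, against 2.07, 1.95, 1.96, 2.18 and 0.247 FPKM in WT-Con hearts 1 to 5. Its log2 fold change of 0.68 (SE 0.38, limma adjusted p = 0.433) was 0.15 (SE 0.18, limma adjusted p = 0.675) without WT-Con 5 and Fat1-IR 1. Crat, the carnitine acetyltransferase, was at 54.0 to 76.8 FPKM in WT-IR, against 71.8 to 76.8 FPKM in WT-Con, with -0.24 (SE 0.09, limma adjusted p = 0.208). Cpt2, the inner membrane enzyme, was at 57.3 to 84.6 FPKM in WT-IR, against 64.6 to 102.0 FPKM in WT-Con, with -0.27 (SE 0.13, limma adjusted p = 0.317). Slc25a20, the carrier itself, was at 26.2 to 37.9 FPKM in WT-IR, against 31.6 to 35.7 FPKM in WT-Con.

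Acacb and Mlycd set the level of malonyl-CoA, since Acacb makes it at the mitochondrion and Mlycd breaks it down. Acacb was at 24.0, 26.3, 20.7, 31.8 and 22.1 FPKM in WT-IR hearts 1 to 5, against 31.1, 36.2, 30.2, 29.8 and 24.6 FPKM in WT-Con hearts 1 to 5. In Fat1-IR it was at 26.6, 26.5, 25.3, 23.1 and 26.4 FPKM, against 25.8, 32.0, 30.5, 35.0 and 30.1 FPKM in Fat1-Con. In both genotypes most IR hearts lay below most control hearts, and the ranges overlapped. Log2 fold changes were -0.29 (SE 0.12, limma adjusted p = 0.246) in WT and -0.26 (SE 0.12, limma adjusted p = 0.383) in Fat1 hearts, and the first was -0.36 (SE 0.11, limma adjusted p = 0.0495) without WT-Con 5 and Fat1-IR 1, with 0.0145 to 0.607 over the 36 fits. Mlycd was at 19.3 to 27.7 FPKM in WT-IR, against 20.6 to 44.9 FPKM in WT-Con.

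Members for unsaturated chains are the isomerases Eci1 and Eci2 and the reductase Decr1. Their log2 fold changes in WT-IR hearts were -0.28 to -0.13 over all hearts, with 0 called, and -0.06 to 0.04 without WT-Con 5 and Fat1-IR 1, the heart WT-Con 5 being the highest WT-Con heart for each. Eci1 was at 69.0 to 88.2 FPKM in WT-IR, against 77.2 to 167.7 FPKM in WT-Con. Decr1 was at 73.1 to 104.9 FPKM in WT-IR, against 90.8 to 157.5 FPKM in WT-Con, and Eci2 at 14.0 to 17.9 FPKM in WT-IR, against 13.6 to 26.3 FPKM in WT-Con. Of the thioesterases, which split acyl-CoA again, Acot13 was at 189.9 to 224.4 FPKM in WT-IR, against 169.9 to 205.1 FPKM in WT-Con hearts 1 to 4 and 489.1 FPKM in WT-Con 5. Acot2 was at 18.8 to 39.2 FPKM in WT-IR, against 24.3 to 43.6 FPKM in WT-Con, and Acot1 at 1.45 to 4.11 FPKM in WT-IR, against 2.64 to 4.20 FPKM in WT-Con.

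Between Fat1-IR and WT-IR hearts, 27 of the 38 members were higher in Fat1-IR and 11 lower, with a median log2 fold change of 0.07 (0.03 over all genes). Limma called 0 of 38, where 0.104% of all genes were called, with 2 members, Bdh1 and Oxct1, at an unadjusted p under 0.05 (6.81% of all genes). Voom called 0 and had 3 at that level. With nuclear scaling 14 members were higher, and without WT-Con 5 and Fat1-IR 1 it was 16, with medians of -0.03 and -0.01. The 4 dehydrogenases (0.07 to 0.26) and the 3 electron transfer members (0.13 to 0.18) were each higher in Fat1-IR hearts as deposited, and Acads and Etfb were lower without Fat1-IR 1 and WT-Con 5. Under nuclear scaling 3 of the 4 dehydrogenases were higher. Cell type markers differed between these groups too. The cardiomyocyte markers were higher in Fat1-IR for 12 of 15, with a median log2 fold change of 0.15, and for 9 of 15, with a median of 0.02, without Fat1-IR 1 and WT-Con 5. All 12 endothelial, 8 fibroblast and 10 macrophage markers were lower in Fat1-IR hearts in both fits, with medians of -0.22, -0.28 and -0.43 and 0 called over all hearts and, without those 2 hearts, 3 of the macrophage markers called lower by limma. The 6 adipocyte markers tested were all higher, with a median of 1.13, and 4 of 6 were higher, with a median of 0.60, without those hearts. The part of these cells in the members' values was not tested. No member had groups without overlap, as 0.681% of all genes did with Fat1-IR higher and 0.906% with Fat1-IR lower.

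Between Fat1-Con and WT-Con hearts, 25 of the 38 members were lower in Fat1-Con and 13 higher, where 51.4% of all genes were lower. The median log2 fold change was -0.11 (-0.01 over all genes). Without WT-Con 5 and Fat1-IR 1, 27 were lower and 11 higher, with a median of -0.04 (-0.01 over all genes). Limma called 0 of 38 members over all hearts, where 0.0274% of all genes were called, with 3 at an unadjusted p under 0.05 (5.63% of all genes), and voom called 0 with 4. These 3 were Cpt1b, Cpt1a and Eci1, and without WT-Con 5 and Fat1-IR 1 the count at that level was 0 (4.82% of all genes). Cpt1b was at 2.19, 2.43, 2.56, 2.97 and 2.49 FPKM in Fat1-Con hearts 1 to 5, above the WT-Con values of 0.247 to 2.18 FPKM, at 0.82 on the log2 scale (SE 0.38, limma adjusted p = 0.757). Cpt1a was at 5.19, 7.59, 8.07, 7.11 and 4.81 FPKM in Fat1-Con hearts 1 to 5, against 2.30 to 6.10 FPKM in WT-Con, with 0.48 (SE 0.22, limma adjusted p = 0.757). Eci1 was at 73.2, 71.5, 72.3, 80.2 and 69.6 FPKM in Fat1-Con hearts, against 81.1, 78.8, 77.2, 84.6 and 167.7 FPKM in WT-Con hearts, with -0.35 (SE 0.16, limma adjusted p = 0.757). These differences were smaller without WT-Con 5 and Fat1-IR 1, at 0.29 (SE 0.18) for Cpt1b, 0.24 (SE 0.18) for Cpt1a and -0.13 (SE 0.07) for Eci1. Groups without overlap were those of Cpt1b with Fat1-Con higher (0.576% of all genes) and of Acadl and Crat with Fat1-Con lower (0.757% of all genes). Acadl was at 428.9 to 451.4 FPKM in Fat1-Con, against 454.3 to 552.4 FPKM in WT-Con, with a log2 fold change of -0.11 (SE 0.11), and that of Crat was -0.15 (SE 0.09). Of the 10 macrophage markers, 9 were lower and 1 higher in Fat1-Con hearts, with a median of -0.43 and 0 called. Without WT-Con 5 and Fat1-IR 1 the marker counts were the same, with a median of -0.30, and the part of these cells was not tested. In the interaction Cpt1a had the smallest p of the members, at -0.74 (SE 0.32, limma adjusted p = 0.831) and -0.50 (SE 0.25, limma adjusted p = 0.821) without WT-Con 5 and Fat1-IR 1, from Fat1-IR values of 5.44, 5.90, 6.66, 4.61 and 5.21 FPKM beside the other groups above.

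WT-Con 5 departed from its group across all genes, and among the members the departure varied with transcript length. Its members lay between -2.61 and 3.33 relative to the median of the other WT-Con hearts on the log2 scale, and 22 of 38 were off by more than 1.5-fold, against 1 to 3 of 38 in WT-Con 1 to 4. The members' share, 22 of 38, was near that of all genes, of which 53.0% were off by as much in WT-Con 5, against 15.0% to 17.8% in WT-Con 1 to 4. All 13 members whose longest coding transcript is under 2000 bases were higher in WT-Con 5, with a median log2 deviation of 0.96, while 5 of the 12 with 3000 bases or more were, with a median of -0.48. Spearman's rho of deviation with transcript length over the 38 members was -0.41 in Fat1-IR 1 and -0.71 in WT-Con 5, and between -0.59 and 0.51 in the other 18 hearts, as a description of members that share a library. With GC content it was 0.06 in Fat1-IR 1 and 0.25 in WT-Con 5. In Fat1-IR 1, 10 of 38 members were more than 1.5-fold up and 0 down, where 35.4% of all genes were off by as much, and the median deviation was 0.33 over members and 0.28 over all genes.

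**Figure D5:**
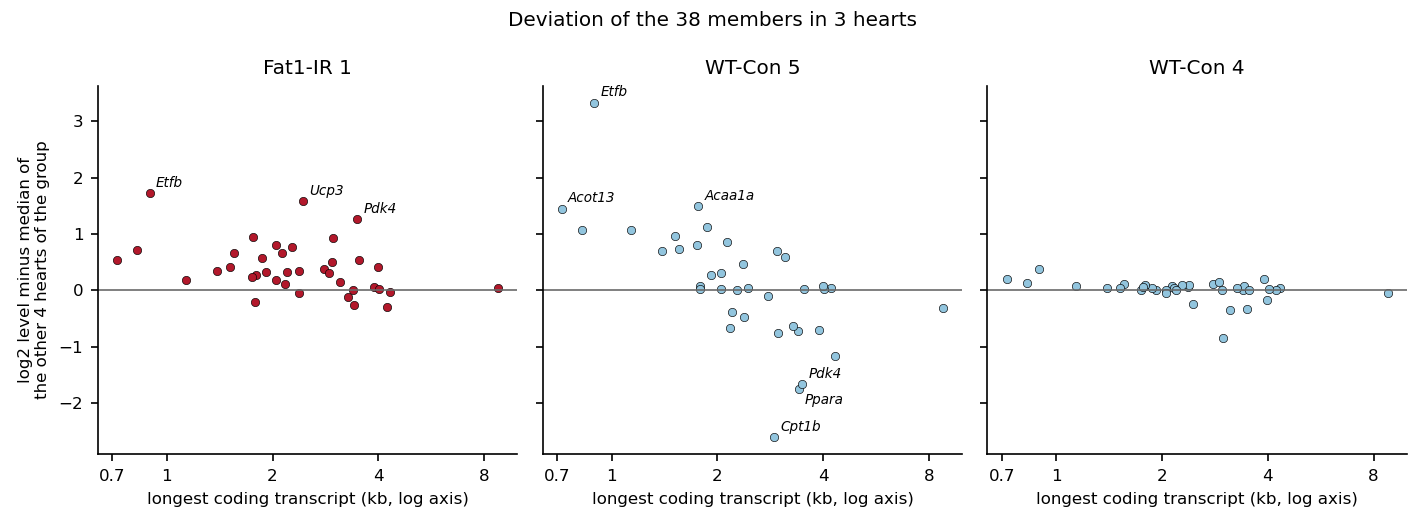
Deviation of each of the 38 members (log2 level minus the median of the other 4 hearts of the group) against the length of its longest coding transcript (kb, log axis), in Fat1-IR 1, WT-Con 5 and, for comparison, WT-Con 4. In WT-Con 5 short transcripts lie above 0 and many long ones below, from Etfb (3.33) to Cpt1b (-2.61).

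Other genes of the pathway, from lists that hold no member, gave few calls. Of 22 other beta-oxidation enzymes, 18 were lower in WT-IR hearts with a median log2 fold change of -0.13, and limma called 0, with 2 at an unadjusted p under 0.05 (14.9% of all genes). Without WT-Con 5 and Fat1-IR 1, 12 of the 21 tested were lower, with a median of -0.12 and 0 called, and 7 were at that level (22.7% of all genes). Of 28 other PPAR targets and regulators, 15 were lower and 0 called, with 3 at that level, and 18 were lower and 0 called, with 7 at that level, without those hearts. Pnpla2, the lipase that starts triglyceride breakdown and feeds PPARα, was at 71.1 ± 7.73 FPKM in WT-IR and 95.9 ± 14.9 FPKM in WT-Con (SD, n = 5 each), with a log2 fold change of -0.43 (SE 0.11, limma adjusted p = 0.0357), short of the 1.5-fold threshold. WT-Con 5 raised that mean, at 122.2 FPKM, against 85.9 to 93.4 FPKM in WT-Con hearts 1 to 4 and 59.9 to 80.7 FPKM in WT-IR hearts. Of 8 other ketone genes, 0 were called in any of the 5 comparisons by limma, with at most 1 at an unadjusted p under 0.05. Of 18 other uptake, transport and activation genes tested, limma called 1 in WT-IR hearts, Fabp5, a fatty acid binding protein found in endothelial cells and macrophages. Fabp5 rose: it was at 6.22, 6.13, 5.61, 5.84 and 7.64 FPKM in WT-IR hearts 1 to 5, against 2.35, 2.24, 2.47, 2.47 and 6.21 FPKM in WT-Con hearts 1 to 5, with a log2 fold change of 1.09 (SE 0.23, limma adjusted p = 0.00786). WT-Con 5 alone reached the WT-IR range. In Fat1-IR hearts it was at 5.48, 3.98, 4.26, 6.09 and 3.17 FPKM, against 2.59, 2.94, 2.07, 2.28 and 2.77 FPKM in Fat1-Con hearts, with 0.81 (SE 0.23, limma adjusted p = 0.0694), and it passed the test there without WT-Con 5 and Fat1-IR 1, at 0.74 (SE 0.15, limma adjusted p = 0.00754). Without those hearts limma also called Fabp4 (0.77, SE 0.13) and Gpihbp1 (0.66, SE 0.15) higher in WT-IR hearts, where 4.75% of all genes were called. Both are genes of the capillary endothelium. For both, the omitted WT-Con 5 lay above every WT-IR heart. Fabp4 was at 162.2 FPKM in WT-Con 5, against 83.6 to 129.5 FPKM in WT-IR and 56.9 to 67 FPKM in WT-Con hearts 1 to 4. Gpihbp1 was at 24.7 FPKM in WT-Con 5, against 13.6 to 21.9 FPKM in WT-IR and 8.96 to 12.8 FPKM in WT-Con hearts 1 to 4. The 12 endothelial markers were all higher in WT-IR hearts too, and their part in these results was not tested.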

How the data were processed

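Ventricular RNA was extracted with TRIzol and made into libraries with the NEBNext Ultra kit for Illumina HiSeq sequencing. The authors deposited FPKM per gene and heart, and the submitters' processing notes name HISAT2, featureCounts and mm10. Tool versions, annotation release and strand handling: not given in the sources used here. Columns of FPKM were mapped to hearts by name, with 0 unmapped. Fragment totals were read back from FPKM and GENCODE exon length. Values entered limma 3.58.1 (R 4.3.3) as log2(FPKM + 0.1), with trend and 1 fit of the 4 group means, on the 18219 genes averaging 0.1 FPKM or more, so fold changes of low genes are understated. All 38 members passed this filter. Calls needed a two-sided Benjamini-Hochberg adjusted p under 0.05 over all genes and a fold change over 1.5 (interaction: adjusted p alone). Tables used pandas 2.3.3 and numpy 2.4.6 under Python 3.11.15, plots used matplotlib 3.10.9, and the fits were tested on simulated data.

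The members and lists were chosen with earlier results of these data known. Values in every heart were to be given for members called in a comparison and the 3 with the smallest p in each. Pdk4, Acsl1 and Etfb were added after their values were seen. Of other lists, genes called or the 2 with the smallest p were named. Alternatives were other pseudocounts (0.01 and 1), filters, scalings (median-of-ratios, TPM, nuclear fragments), weights, voom, fits of each pair alone, a replicate block, no fold threshold, and leaving hearts out. Nuclear scaling or no fold threshold combined with leaving out WT-Con 5 and Fat1-IR 1 was chosen after seeing the data.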

Additional observations from a re-analysis of the deposited data

Results flagged for a closer look

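Values of 1 heart far from the other 4 of its group were looked for in the 152 groups of member values, and 30 were found. A value was flagged when its gap to the nearest heart exceeded 0.71 of the group's range (Dixon's criterion). That criterion flags about 1 in 20 independent groups by chance. The members of a heart share 1 library, so the count of 30 cannot be set against that rate. Of the 30 values, 16 were in WT-Con 5. Its high values were Fabp3 (6412.2 FPKM), Mlycd (44.9 FPKM), Acadl (552.4 FPKM), Acadm (341.5 FPKM), Acads (150.7 FPKM), Etfa (445.4 FPKM), Etfb (137.2 FPKM), Echs1 (49.9 FPKM), Acaa2 (759.0 FPKM), Eci1 (167.7 FPKM), Eci2 (26.3 FPKM), Decr1 (157.5 FPKM), Acaa1a (26.8 FPKM) and Acot13 (489.1 FPKM). Its low values were Cpt1b (0.247 FPKM) and Acadvl (117.4 FPKM).

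Fat1-IR 1 held 10. Its high values were Fabp3 (5029.7 FPKM), Acadm (453.5 FPKM), Etfa (344.7 FPKM), Etfb (55.2 FPKM), Echs1 (48.1 FPKM), Acaa1a (18.4 FPKM), Acot13 (269.2 FPKM), Pdk4 (932.9 FPKM) and Oxct1 (447.0 FPKM), and Crat was low (51.6 FPKM). WT-IR 4 was high for Cpt1b (3.76 FPKM), Cpt2 (84.6 FPKM) and Oxct1 (359.3 FPKM), and WT-Con 3 was low for Oxct1 (307.8 FPKM). The share of fragments from the mitochondrial genome was low in Fat1-IR 1 (13.9%) and WT-Con 5 (15.1%) in the same way.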

How the results depend on the processing

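In WT-IR against WT-Con, limma called 0 members (3.2% of all genes). It called 1 with a mean FPKM of at least 1, 1 with median-of-ratios scaling, 1 with voom and 2 with array weights. It called 2 without WT-Con 5 and Fat1-IR 1 (4.75% of all genes), 2 without these and Fat1-IR 4, and 1 under nuclear scaling without WT-Con 5 and Fat1-IR 1. With no fold threshold and without WT-Con 5 and Fat1-IR 1 it called 7 (8.92% of all genes). Calls over all genes also change with the fit, and their share is not given here for every alternative. These counts are therefore not read as a result about the members. Leaving out 1 heart at a time gave 0 to 1, with Bdh1 called without WT-IR 4, WT-IR 5 or Fat1-IR 5. The other 4 comparisons had 0 members called under every alternative run. The log2 fold change of Etfb in WT-IR hearts, -0.17 over all hearts, ranged from -0.42 to 0.50 with 1 heart left out and was 0.42 with array weights, 0.50 without WT-Con 5, 0.50 without it and Fat1-IR 1, 0.50 without these and Fat1-IR 4, and 0.57 under nuclear scaling without WT-Con 5 and Fat1-IR 1. Replicate numbers did not pair the hearts: of 30 same-numbered pairs, 0 had deviations correlated over 0.1 (-0.136 to 0.0604), and 1 of 20 hearts correlated best with its own number. With the replicate block, 0 members were called in each comparison. With 5 hearts a group, the standard errors of the members in WT-IR against WT-Con, 0.09 to 0.50 on the log2 scale, limit the size of change that can be told from 0.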
